A study of Rattus norvegicus with 8 samples.

Results

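The 8 rat genes described here encode subunits of voltage-gated sodium channels: 6 alpha subunits (Scn10a, Scn11a, Scn9a, Scn1a, Scn8a and Scn3a) and 2 beta subunits (Scn2b and Scn4b). They were found on an expression array by the RefSeq accession of each probe. The 8 genes had 1 probe each, of 30367 probes in all, 17998 of which matched 15154 gene symbols.

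These channels carry the inward current that starts and propagates the action potential. Each channel has a pore-forming alpha subunit, and smaller beta subunits bound to it tune gating and place it in the membrane. Sensory neurons of the dorsal root ganglion carry several alpha subunits side by side: channels resistant to tetrodotoxin are typical of nociceptors, which sense harmful stimuli, while other channels prevail in fast-conducting, large-diameter neurons.

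The cells were cultures of dissociated dorsal root ganglia from Wistar rats aged 0 to 5 days, with both sexes pooled. After 2 to 3 days in vitro, a human protein was added to the medium for 5 days at a dose of 100 ng/ml. It was the double mutant P61S/R100E (n = 3 arrays), the single mutant P61S (n = 3 arrays) or the wild type (n = 2 arrays), and cultures without it were not analysed here. All groups were grown without serum in a medium with fluorodeoxyuridine and uridine, which limit dividing cells. Neurons and non-neuronal cells were extracted together, so fewer cells of a type and less RNA per cell cannot be told apart. Nothing in the labels says whether replicates were separate cultures or animals, and p-values measure only the spread between these samples.

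Each array gave a scanner intensity per spot, and levels are given here as log2 of that signal minus the log2 75th percentile of the array. A level of 0 is therefore the signal of that percentile, and levels of different probes are not compared with each other, because probes differ in how brightly they bind. That percentile ran from 3267 to 5269, and per array 78.7% to 88.8% of spots stood well above background. Wild type replicate 2 stood apart: its correlations across probes with the other arrays were 0.983 to 0.989. Of the 22 pan-neuronal markers looked up, 18 were on the array and all 18 were detected (well above background on all arrays of 1 group or more, which was also the condition for a test). The same held for 12 of 13 nociceptor markers, Mrgprd being the exception. All 8 arrays lay on 1 slide, and both wild type arrays were in its column 4, where no mutant array lay. In comparisons with wild type, an effect of that column and of the protein cannot be told apart. Between the mutants they can be told apart only in column 2, which held replicate 2 of each, since column 1 held only P61S arrays and column 3 only P61S/R100E arrays. A fit with the column as a covariate therefore gives the difference between those single arrays.

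Scn4b was the member with the clearest difference between the proteins, and it stood higher with P61S/R100E. Scn10a, which encodes the nociceptor channel Nav1.8, stood highest with P61S and near the same level with P61S/R100E and wild type. Scn11a was lowest with P61S/R100E by a small margin, and for the other 5 genes the groups overlapped in every comparison. None of the 8 passed the test over all probes in any comparison: limma with Benjamini-Hochberg adjustment called 0 of 23585 tested probes at an adjusted p under 0.05 for P61S/R100E against P61S (0% of all probes), 0 against wild type (0%) and 0 for P61S against wild type (0%). At an unadjusted p under 0.05, 2 of 8 members were found for P61S/R100E against P61S (Scn4b higher, Scn10a lower), where 4.01% of all probes were, 1.94% higher and 2.07% lower. In the comparison of P61S/R100E with wild type it was 1 of 8 (Scn4b, higher), beside 5.04% of all probes, 1.60% higher and 3.44% lower. For P61S against wild type it was 0 of 8, beside 2.07%, 0.691% higher and 1.38% lower. All 8 probes were well above background on all 8 arrays, so none was left out of the test.

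**Figure D1:**
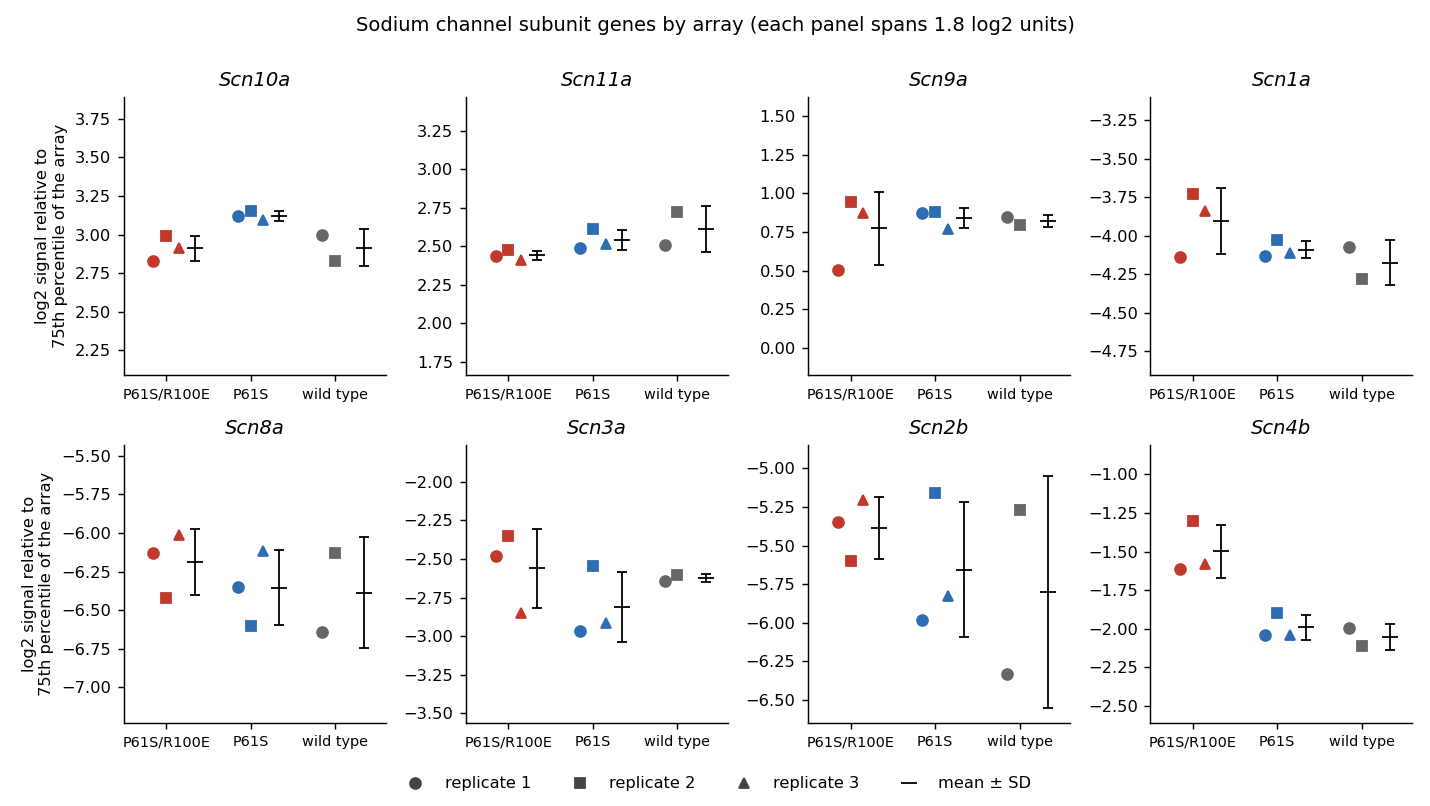
Level of each sodium channel subunit gene (log2 signal relative to the 75th percentile of the array, y axis) in the P61S/R100E, P61S and wild type arrays (x axis). Each symbol is an array (circle, replicate 1; square, replicate 2; triangle, replicate 3) and each bar is the mean ± SD. The 3 P61S/R100E arrays lie above all others for Scn4b, and the 3 P61S arrays lie above all others for Scn10a.

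Scn4b encodes the beta4 subunit, which is linked to the alpha subunit by a disulfide bond and whose intracellular end can block the open channel and give a resurgent current on repolarization. In rodents it is known from large-diameter sensory neurons. Its probe was A_42_P674843. Its level was -1.61, -1.30 and -1.58 in the 3 P61S/R100E arrays, against -2.04, -1.89 and -2.04 in the 3 P61S arrays and -1.99 and -2.11 in the wild type arrays. Every P61S/R100E array was thus above every other array, and P61S and wild type overlapped. With P61S/R100E the level averaged -1.50 ± 0.17, against -1.99 ± 0.08 for the P61S arrays (SD, n = 3 each), a 1.41-fold difference (log2 change 0.49, SE 0.11, 95% bounds 0.23 and 0.75). limma gave an unadjusted p of 0.0029, rank 101 among the 23585 tested probes, and an adjusted p of 0.65. Against wild type (-2.05 ± 0.09, SD, n = 2) the P61S/R100E level was 1.47-fold higher (log2 change 0.56, SE 0.12, 95% bounds 0.26 and 0.85), with an unadjusted limma p of 0.0028, rank 92, and an adjusted p of 0.72. These comparisons share the P61S/R100E arrays. Between P61S and wild type Scn4b differed by 0.06 (95% bounds -0.23 and 0.35).

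The Scn4b probe was printed 10 times on each array, which gives its array values more spots than any other member had. After 12 spots over all arrays were left out as outliers by the scanner software, the 25 spots of P61S/R100E ran from -1.68 to -1.20. The 25 P61S spots ran from -2.18 to -1.76 and the 18 wild type spots from -2.26 to -1.93. No used spot of P61S/R100E was as low as the highest used spot of the other proteins. A spot that was left out, on P61S replicate 2, stood at -1.54 and would have lain within the P61S/R100E range. The spread between spots of an array (SD 0.0599) was 0.473 times the spread between replicates (SD 0.127). Before scaling, the signals were 1224, 2140 and 1498 with P61S/R100E, 1259, 1061 and 1159 with P61S and 1263 and 755 with wild type. On that unscaled intensity P61S/R100E replicate 1 stood above P61S replicates 2 and 3 but below P61S replicate 1 and wild type replicate 1. The 75th percentile of its array was 3744. That of P61S replicates 1, 2 and 3 was 5176, 3946 and 4768, and that of wild type replicate 1 was 5025. Quantile normalization and centring on the median, which scale the arrays in other ways, also gave Scn4b above 0 in both comparisons of P61S/R100E.

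**Figure D2:**
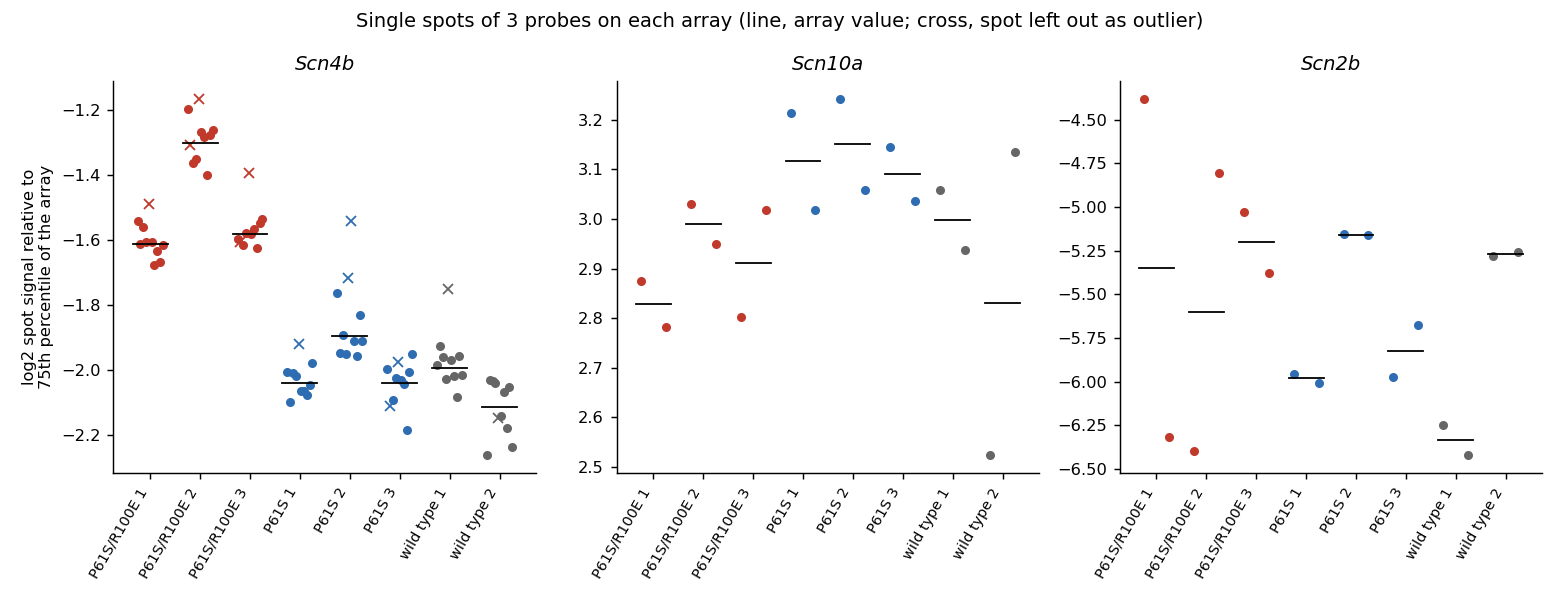
Single spots (log2 relative to the 75th percentile of the array, y axis) for the Scn4b, Scn10a and Scn2b probes on the P61S/R100E (red), P61S (blue) and wild type (grey) arrays (x axis). Black lines are the array values and crosses are spots left out as outliers. The used Scn4b spots of P61S/R100E lie above -1.76, the highest used spot of P61S, while the 2 Scn2b spots of P61S/R100E replicate 1 differ 3.83-fold.

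The 250 bases before the Scn4b transcription start (RefSeq, build GRCr8, chr8:54343623-54343872, + strand) are shown because Scn4b had the clearest difference, with those before the Scn10a start (chr8:128340299-128340548, - strand) for comparison. The motifs searched on both strands were the TATA box TATAAA, the GC box GGGCGG, the CCAAT box CCAAT, the E-box CANNTG, the cyclic AMP response element core TGACG and the AP-1 site TGANTCA. Capitals mark every match, and no matches overlapped each other.
Scn4b: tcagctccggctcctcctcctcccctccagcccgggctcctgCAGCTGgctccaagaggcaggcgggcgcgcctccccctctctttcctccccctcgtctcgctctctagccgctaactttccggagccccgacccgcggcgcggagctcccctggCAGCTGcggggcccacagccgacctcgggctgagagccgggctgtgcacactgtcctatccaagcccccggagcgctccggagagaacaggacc
Scn10a: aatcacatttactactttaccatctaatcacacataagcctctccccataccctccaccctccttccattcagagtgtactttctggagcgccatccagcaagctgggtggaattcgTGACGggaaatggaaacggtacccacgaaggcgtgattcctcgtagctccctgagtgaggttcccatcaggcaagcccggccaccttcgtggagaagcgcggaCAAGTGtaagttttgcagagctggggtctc
The Scn4b window held 2 E-boxes and no match to the other motifs, while the Scn10a window held 1 E-box and 1 TGACG. An E-box was present in 65.2% of 27457 rat promoter windows of the same length and TGACG in 19.0%. The Scn4b window was rich in G and C (71.6%, above 93.3% of all windows) and that of Scn10a was near the median of 52% (53.2%). A match describes the letters only.

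Large-diameter neuron markers were read beside Scn4b. Of 15 markers, all tested, 0 passed over all probes between P61S/R100E and P61S. At an unadjusted p under 0.05 there was 1 higher and 2 lower, beside 1.94% and 2.07% of all probes. Their median log2 change was -0.13, where the median of all probes was -0.02. Against wild type, 1 of these markers was higher and 2 were lower (1.60% and 3.44% of all probes), and their median was -0.10. Their summed signal in units of the 75th percentile was 13.9 to 14.4 with P61S/R100E, 14.4 to 14.5 with P61S and 14.1 to 14.2 with wild type. The median level over the list was -1.45 to -1.28 with P61S/R100E, -1.96 to -1.47 with P61S and -2.07 to -1.75 with wild type. That summary stood highest with P61S/R100E while the sum did not. Of the 15 markers, 5 had a change above 0 against P61S and 5 against wild type (43.0% and 37.6% of all probes). The part of the list in the Scn4b difference was not tested. Scaling every array to its median pan-neuronal marker left Scn4b at 0.47 (SE 0.20) against P61S and at 0.74 (SE 0.22) against wild type.

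Scn10a and Scn11a encode the tetrodotoxin-resistant channels of small-diameter neurons. Scn10a carries most of the current of the nociceptor action potential upstroke, and Scn11a a persistent current near the resting potential. The Scn10a level (probe A_64_P069374) was 2.83, 2.99 and 2.91 with P61S/R100E, 3.12, 3.15 and 3.09 with P61S, and 3.00 and 2.83 with wild type. All 3 P61S arrays stood above the other 5, and P61S/R100E and wild type overlapped. P61S/R100E (2.91 ± 0.08) was 1.16-fold lower than P61S (3.12 ± 0.03, SD, n = 3 each), with a log2 change of -0.21 (SE 0.0847, 95% bounds -0.41 and -0.01), a limma unadjusted p of 0.043 and an adjusted p of 1.00. Against wild type, P61S/R100E differed by -0.0045 (95% bounds -0.23 and 0.22), a difference whose sign turned under 5 other settings and without either of 2 single arrays. P61S was above wild type (2.91 ± 0.12, SD, n = 2) by 0.21 (SE 0.0947, 95% bounds -0.02 and 0.43), with a limma unadjusted p of 0.067.

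Over all arrays, the spread between the 2 Scn10a spots of an array (SD 0.183) was 2.40 times that between replicates (SD 0.0762). Spots of P61S/R100E ran from 2.78 to 3.03 and those of P61S from 3.02 to 3.24, so single spots overlapped. The 2 Scn10a spots of an array had an SD of 0.0569 to 0.153 on the 6 mutant arrays. On wild type replicate 2 it was 0.433, where the spots stood at 2.52 and 3.14, a 1.53-fold difference, and the higher of them lies inside the range of the P61S array values. The Scn10a difference between P61S and wild type was 0.12 without wild type replicate 2 and 0.29 without wild type replicate 1, and it ran up to 0.41 with pan-neuronal scaling. In column 2 of the slide, P61S/R100E replicate 2 differed from P61S replicate 2 by -0.16, 1 array against 1. The unadjusted limma p for P61S/R100E against P61S reached 0.29 with pan-neuronal scaling. With single mutant arrays left out, that p was under 0.05 only without P61S/R100E replicate 2 (0.035). For the other mutant arrays it was 0.075 to 0.12.

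Scn11a had levels of 2.44, 2.47 and 2.41 with P61S/R100E, 2.49, 2.61 and 2.51 with P61S, and 2.51 and 2.72 with wild type. The P61S/R100E arrays were the 3 lowest of the 8, and P61S and wild type overlapped. The log2 change was -0.10 against P61S (SE 0.0868, 95% bounds -0.30 and 0.11) and -0.17 against wild type (SE 0.097, 95% bounds -0.40 and 0.06), with limma unadjusted p-values of 0.30 and 0.12. Between P61S and wild type it was -0.07 (95% bounds -0.30 and 0.16). The wild type value rests on a wide pair, of which replicate 2 (the array standing apart) was the higher. Scn11a differed by -0.07 against wild type without that array and by -0.28 without wild type replicate 1. Each of these fits leaves 1 wild type array.

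Nociceptor markers were read beside both genes. Of 12 tested members of that list, 0 passed over all probes and 4 were lower at an unadjusted p under 0.05 between P61S/R100E and P61S (2.07% of all probes), with a median log2 change of -0.14. Against wild type 4 of 12 were lower (3.44% of all probes), with a median of -0.16 where that of all probes was -0.06. Between P61S and wild type 0 of 12 reached an unadjusted p under 0.05 (median -0.02). The summed signal of the list ran from 119 to 128 with P61S/R100E, 125 to 151 with P61S and 133 to 135 with wild type. The median level over the list was 1.44 to 1.49 with P61S/R100E, 1.40 to 1.48 with P61S and 1.54 to 1.55 with wild type. Neither summary separated P61S/R100E from P61S. Both lay lower with P61S/R100E than with wild type, and the median level did so with P61S as well. Pan-neuronal markers had a median change of -0.01 against P61S and -0.13 against wild type. Their part in the Scn10a and Scn11a values was not tested. For P61S/R100E against P61S, 0 of 15 glial, 0 of 10 fibroblast and 0 of 10 macrophage/endothelial markers had an unadjusted p under 0.05. The share of all probes was 4.01%, and the medians of these non-neuronal lists were -0.01, 0.07 and -0.06. Against wild type, 1 of the 10 macrophage/endothelial markers was higher (1.60% of all probes). Between P61S and wild type 0 of 10 fibroblast markers had a change above 0, beside 39.9% of all probes, with a median of -0.12.

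Scn9a encodes Nav1.7, the tetrodotoxin-sensitive channel that amplifies small depolarizations in nociceptors and whose loss in people abolishes pain. Its level was 0.50, 0.94 and 0.88 with P61S/R100E, 0.88, 0.88 and 0.77 with P61S, and 0.85 and 0.79 with wild type. P61S/R100E replicate 1 was the lowest of the 8 arrays and replicate 2 the highest, so the range of that group held all other values. The log2 change was -0.07 against P61S (95% bounds -0.37 and 0.23), -0.05 against wild type (95% bounds -0.38 and 0.29) and 0.02 between P61S and wild type (95% bounds -0.32 and 0.36). Without P61S/R100E replicate 1 the first was 0.07 and the second 0.09. The spots agreed closely (SD 0.0472, against 0.156 between replicates), so the low value of that array was seen on both spots. The bounds hold changes of up to 1.29-fold lower and 1.18-fold higher with P61S/R100E than with P61S.

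Scn1a and Scn8a encode tetrodotoxin-sensitive channels of fast-conducting axons, Scn8a being the main channel at nodes of Ranvier of myelinated fibres. Scn1a had levels of -4.14, -3.73 and -3.84 with P61S/R100E, -4.13, -4.03 and -4.11 with P61S, and -4.07 and -4.28 with wild type. A pair of P61S/R100E arrays stood above all others, while replicate 1 lay among them. The log2 change was 0.19 against P61S (SE 0.126, 95% bounds -0.11 and 0.49) and 0.27 against wild type (SE 0.14, 95% bounds -0.06 and 0.61). Without P61S/R100E replicate 1 these were 0.31 and 0.39, and without P61S/R100E replicate 2 they were 0.10 and 0.19. Without wild type replicate 2 the second was 0.17. P61S and wild type differed by 0.09 (95% bounds -0.25 and 0.42).

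Scn8a was read near background, with a raw spot signal 2.74 to 4.39 times the local background. Its level was -6.13, -6.42 and -6.01 with P61S/R100E, -6.35, -6.60 and -6.11 with P61S, and -6.64 and -6.13 with wild type. All groups overlapped. Its log2 change was 0.17 (95% bounds -0.29 and 0.62) against P61S and 0.20 (95% bounds -0.31 and 0.71) against wild type. It was 0.03 between P61S and wild type (95% bounds -0.48 and 0.54). The spread between spots (SD 0.449) exceeded that between replicates (SD 0.26), with spots of 42.6 and 111 on P61S replicate 3. With single arrays left out, Scn8a differed from P61S by 0.04 to 0.29. The upper bound against P61S allows a level 1.54-fold higher with P61S/R100E.

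Scn3a encodes Nav1.3, a channel of embryonic neurons that is known to return in rat sensory neurons after axotomy. Its level was -2.48, -2.35 and -2.85 with P61S/R100E, -2.97, -2.55 and -2.91 with P61S, and -2.64 and -2.61 with wild type. The P61S/R100E and P61S arrays overlapped and both wild type arrays lay within them. Scn3a differed by a log2 change of 0.25 against P61S (SE 0.165, 95% bounds -0.14 and 0.64), 0.06 against wild type (95% bounds -0.37 and 0.50) and -0.18 between P61S and wild type (95% bounds -0.62 and 0.25). The smallest unadjusted limma p of these was 0.18. Against P61S, Scn3a differed by 0.14 without P61S/R100E replicate 2, by 0.39 without P61S/R100E replicate 3 (limma unadjusted p 0.037) and by 0.38 without P61S replicate 2.

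Scn2b, the gene of the beta2 subunit that raises channel density at the surface, was also dim, at 5 to 8.39 times the local background. Its level was -5.35, -5.60 and -5.20 with P61S/R100E, -5.98, -5.16 and -5.83 with P61S, and -6.33 and -5.27 with wild type. The groups overlapped. Scn2b differed by a log2 change of 0.27 against P61S (SE 0.321, 95% bounds -0.49 and 1.03) and 0.42 against wild type (SE 0.359, 95% bounds -0.44 and 1.27). The result rests on pairs of spots that disagreed: on P61S/R100E replicate 1 they had signals of 180 and 46.9, and on replicate 2 they had 62.4 and 188. The pairs on the P61S and wild type arrays differed by less, 1.23-fold at most. In column 2 of the slide, P61S/R100E replicate 2 was below P61S replicate 2 (difference -0.44, 1 array against 1). With single arrays left out, Scn2b differed from P61S by 0.11 to 0.52. P61S and wild type differed by 0.15 (95% bounds -0.71 and 1.00). Scn2b and Scn4b lie side by side on chromosome 8 in the RefSeq table of GRCr8.

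**Figure D3:**
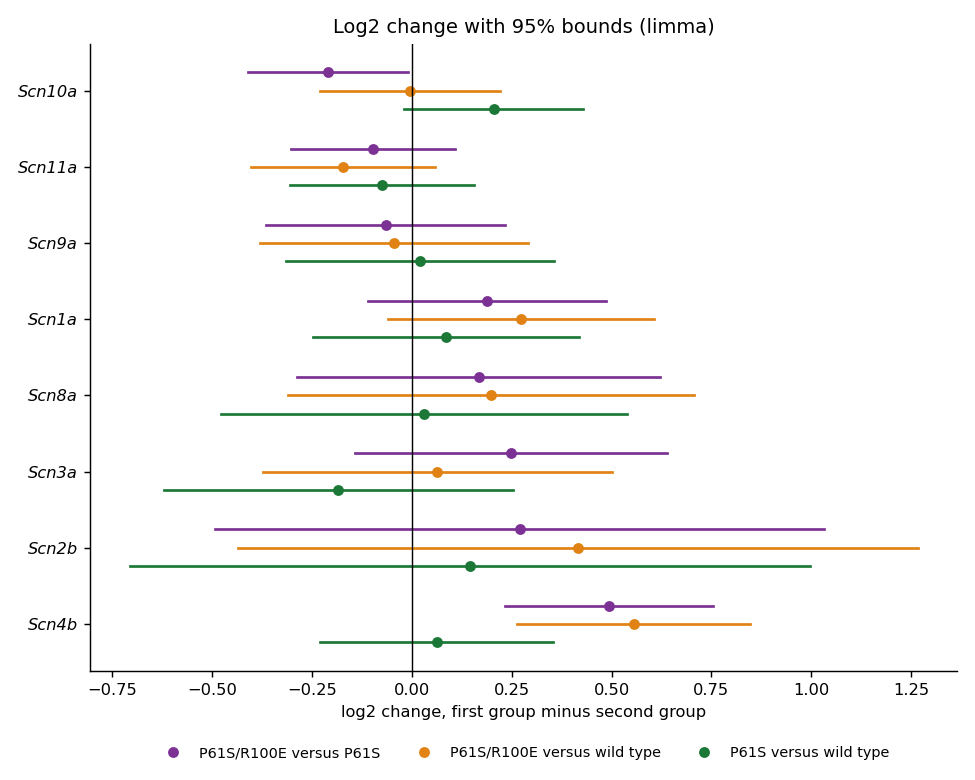
Log2 change (x axis) of each gene (y axis) for P61S/R100E versus P61S (purple), P61S/R100E versus wild type (orange) and P61S versus wild type (green); points are limma estimates and lines 95% bounds. The bounds stay above 0 for Scn4b in both P61S/R100E comparisons (0.23 to 0.75 and 0.26 to 0.85) and just below 0 for Scn10a against P61S.

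Across the 8 genes, the compared groups did not overlap for 3 members between P61S/R100E and P61S (Scn4b higher, Scn10a and Scn11a lower), where 14.0% of all probes did not overlap (5.75% higher, 8.23% lower). Against wild type this held for 2 members (Scn4b higher, Scn11a lower), beside 15.1% of all probes (5.86% higher, 9.20% lower). Between P61S and wild type it held for 1, Scn10a, which was higher, beside 16.6% (7.39% higher, 9.23% lower). The median change of the members was 0.18 for P61S/R100E against P61S, against -0.02 over all tested probes. It was 0.13 against wild type, where that of all probes was -0.06, and 0.05 between P61S and wild type, where it was -0.04. Between P61S/R100E and P61S, 5 of 8 members had a change above 0, as did 43.0% of all probes: these were Scn1a, Scn8a, Scn3a, Scn2b and Scn4b, while Scn10a, Scn11a and Scn9a were below 0. The same 5 were above 0 against wild type (37.6% of all probes), in a comparison that uses the same P61S/R100E arrays. Between P61S and wild type 6 of 8 were above 0, beside 39.9% of all probes.

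**Figure D4:**
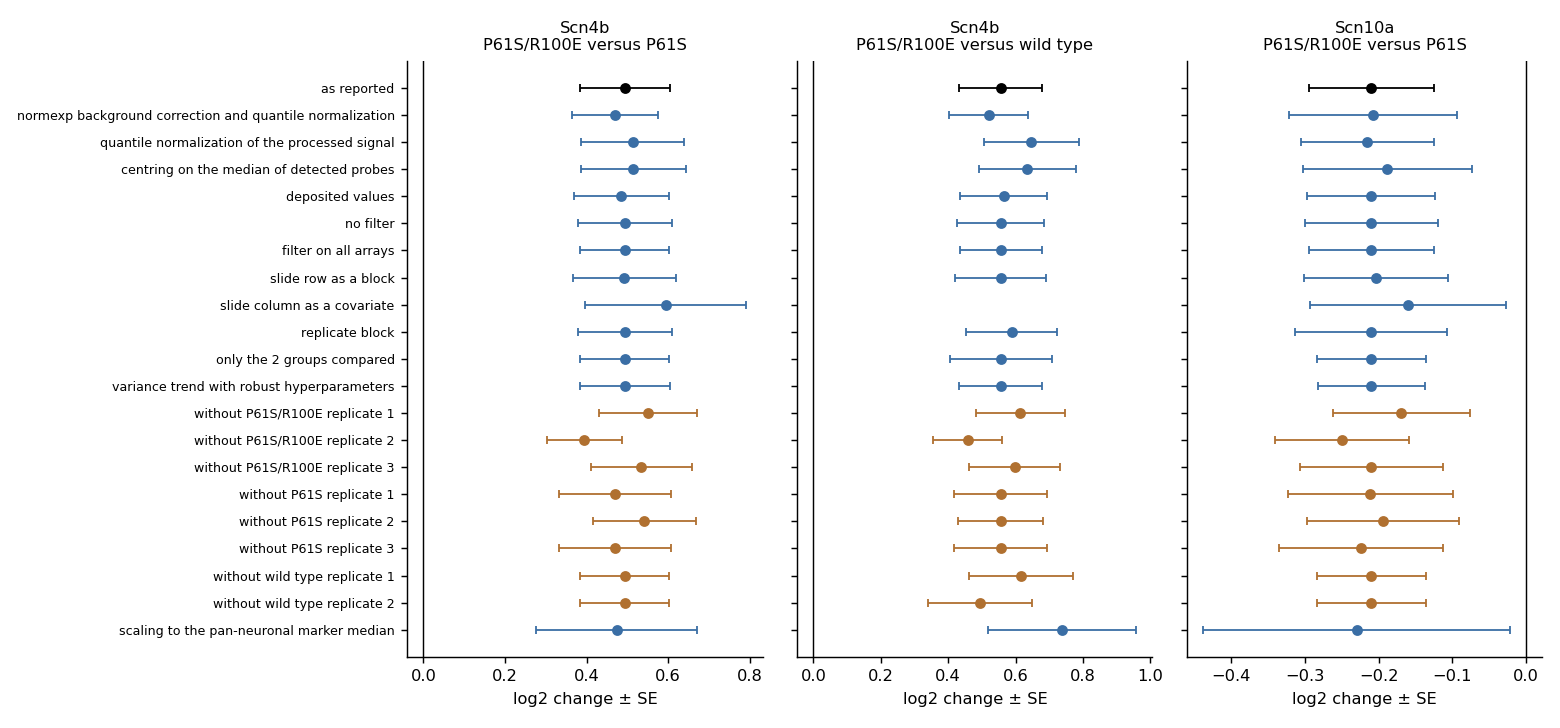
Log2 change ± SE (x axis) of Scn4b (left and middle) and Scn10a (right) as reported (black), under other processing (blue) and without single arrays (brown). Scn4b stays between 0.395 and 0.5945 against P61S and between 0.4572 and 0.7375 against wild type, and Scn10a between -0.2499 and -0.1607 against P61S.

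Scn4b was above 0 under all 20 other settings against P61S, left-out arrays included (0.395 to 0.5945, the highest being the single pair of arrays in column 2), with unadjusted limma p-values of 0.0017 to 0.035 and adjusted p-values of 0.50 to 1.00. Against wild type it was above 0 under all 19 (0.4572 to 0.7375), with adjusted p-values of 0.076 to 1.00. Scn10a was below 0 against P61S under all 20, with unadjusted p-values of 0.019 to 0.29. The plot of settings shows these values. Some settings could not move these estimates, so their sign was fixed beforehand. These were the filters, the variance model, and fits that drop arrays of the third group. In these Scn4b stayed at 0.49 against P61S and 0.56 against wild type, and Scn10a at -0.21 against P61S. The replicate block likewise left the estimates against P61S unchanged.

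Among themselves, the members' profiles over the 8 arrays were most alike for Scn9a and Scn10a, by the root-mean-square difference of levels centred on each gene's mean (0.119). Scn1a and Scn4b followed the nociceptor pairs and Scn9a with Scn1a (0.161), and Scn2b lay farthest from all others (0.36 to 0.451). By the same measure over 12147 other genes, the nearest to Scn4b were Insyn2a (0.0618) and Cdhr1 (0.0804), where the median gene was at 0.317. The nearest to Scn10a were Cntfr (0.028) and Col5a3 (0.0395), to Scn11a Ccdc51 (0.0121) and Xpo6 (0.0271), and to Scn9a Ino80e (0.0369) and Ppig (0.0404). Spata2L (0.0507) and C3h9orf50 (0.0555) were nearest to Scn1a, and Nlk (0.0554) and Megf9 (0.0636) to Scn3a. For the dim probes the nearest were farther, Pla2g5 (0.0849) and Lpgat1 (0.105) for Scn8a and Cidec (0.189) and Cspg4b (0.192) for Scn2b. These likenesses over 8 arrays are a description.

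Genes whose products anchor, bind or modify sodium channels, with sodium pump subunits, were looked up as a list of 31, of which 26 were on the array and 24 were tested. Over all probes 0 passed in any comparison. At an unadjusted p under 0.05, 1 was higher and 0 lower between P61S/R100E and P61S (1.94% and 2.07% of all probes). The median change was -0.02. It was 1 higher and 2 lower against wild type (1.60% and 3.44% of all probes, median 0.00). Between P61S and wild type it was 0 (2.07% of all probes, median -0.02). The 1 higher in both was Dpysl2, which encodes a collapsin response mediator protein known to act on the trafficking of Nav1.7 channels. Its level was 4.16, 4.13 and 4.10 with P61S/R100E, 3.87, 3.97 and 3.92 with P61S, and 3.97 and 3.86 with wild type, with every P61S/R100E array above the other 5. The log2 change was 0.21 against P61S (SE 0.0751, limma unadjusted p 0.029, adjusted p 1.00) and 0.21 against wild type (SE 0.084, adjusted p 0.75).

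Next by p between P61S/R100E and P61S were Cntn1, the gene of the adhesion molecule contactin (0.17, SE 0.133), and, below 0, Pacsin1 (-0.16, SE 0.123) and Tnr, which encodes the matrix protein tenascin-R (-0.18, SE 0.203). Against wild type, Tnr differed by -0.55 (SE 0.227) and Fgf12, which encodes an intracellular factor that binds the tail of the alpha subunit and slows its inactivation, by -0.34 (SE 0.141). Tnr and Fgf12 both stood highest in wild type replicate 2, which stood apart from the other arrays. Between P61S and wild type, Fgf12 differed by -0.28 (SE 0.141) and Magi1, which encodes a scaffold protein, by 0.48 (SE 0.303). Magi1 had its lowest value of the 8 arrays in wild type replicate 2.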

How the data were processed

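The spot intensities were deposited as scanner exports which, per the file headers, came from Feature Extraction 10.7.3.1 (protocol GE1_107_Sep09, array design 028279) with background subtraction and spatial detrending. RNA under an integrity number of 8.0 was discarded, per the labels. Log2 of the processed signal minus the log2 75th percentile of 58717 non-control spots was computed here. Spots of a probe were averaged without outlier-flagged spots. Probes well above background on all arrays of 1 group or more were tested. The authors' deposited log2 matrix (22018 probes, not normalized between arrays) was an alternative. The files hold no mean signal, so normexp used the median signal.

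All 8 arrays entered 1 fit of 3 group means (limma 3.58.1, R 4.3.3), adjusted by Benjamini-Hochberg at 0.05 over 23585 probes and checked on simulated data. The number of arrays limits the precision. Plots used Python 3.11.15 and matplotlib 3.10.9. The members and lists were chosen with earlier results of these data known. Partners are named if past the test, otherwise the 2 of lowest p per direction, and the 2 genes of nearest profile are named for each member; some partners that this rule names are not reported here. Genes were matched by RefSeq accession, and promoters are those of RefSeq GRCr8, where 7 of 8 members matched. Deviations of same-numbered mutant arrays from their group means had correlations of 0.051, -0.021 and 0.0081, so numbers were not taken as pairs. With wild type the correlations were -0.198 to 0.167. Its 2 arrays deviate by equal amounts in opposite directions, so these cannot decide the question. Alternatives covered background, scaling, filters, slide position, blocks, the variance model and each array left out.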

Additional observations from a re-analysis of the deposited data

How the results depend on the processing

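No member passed an adjusted p under 0.05 under any setting. Scn4b was above 0 in both P61S/R100E comparisons under every setting. Filters, the variance model and leaving out arrays outside a comparison could not move its estimate. The count of 2 members at an unadjusted p under 0.05 for P61S/R100E against P61S was 1 under normexp, centring on the median, no filter, the slide row block, the slide column covariate, the replicate block and the pan-neuronal scaling added after the data were seen, and 1 to 2 with single arrays left out (1 without P61S replicate 1, 2 or 3). Against wild type it was 2 under quantile normalization and 1 to 2 with single arrays left out; for P61S against wild type it was 1 under normexp and the variance trend and 0 to 1 with single arrays left out. Over all probes, P61S/R100E against P61S gave 1 call with the deposited values, 1 with the filter on all arrays, 6 with the variance trend and 0 to 3 without single arrays. Against wild type it gave 1 under normexp, quantile normalization, the deposited values, the filter on all arrays and the variance trend, 3 with pan-neuronal scaling, and 0 to 1244 without single arrays, the highest without wild type replicate 1. P61S against wild type gave 1 under normexp, 1 under quantile normalization, 1 with pan-neuronal scaling, and 0 to 250, the highest again without wild type replicate 1. Without that array wild type is 1 array, assumed to vary like the other groups.

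The sign of some changes turned under other settings, and no change of a member had passed to begin with. Against P61S, the slide column covariate, which leaves 1 array against 1 (replicate 2 of each mutant), gave 0.066 for Scn9a and -0.44 for Scn2b. For P61S/R100E against wild type, Scn9a was 0.0049 (normexp), 0.033 (centring) and 0.14 (pan-neuronal), and Scn10a was 0.087, 0.074, 0.00078 (deposited), 0.0026 (replicate block) and 0.18 (pan-neuronal), with Scn11a at 0.0093 there. For P61S against wild type, Scn8a was -0.073 (replicate block), and Scn11a 0.13 and Scn3a 0.017 (pan-neuronal). That scaling shifted the median of all probes by 0.18 for P61S/R100E and 0.20 for P61S against wild type. With the replicate block Scn4b was 0.49 against P61S and 0.59 against wild type. The numbers were not taken as pairs, and the block changed no other call than the count above.

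With single arrays left out, the members at an unadjusted p under 0.05 against P61S changed. Without P61S/R100E replicate 1 they were Scn4b and Scn1a (limma p 0.026), with Scn10a at 0.12. Without P61S/R100E replicate 3 they were Scn4b and Scn3a (limma p 0.037), with Scn10a at 0.075. Over the left-out arrays, Scn9a ran from -0.15 to 0.069 against P61S. For P61S/R100E against wild type the ranges were -0.13 to 0.0897 (Scn9a), -0.0886 to 0.0797 (Scn10a), -0.0400 to 0.21 (Scn3a), -0.058 to 0.45 (Scn8a) and -0.12 to 0.95 (Scn2b). For P61S against wild type they were -0.0060 to 0.056 (Scn9a), -0.18 to 0.031 (Scn11a), -0.017 to 0.19 (Scn1a), -0.22 to 0.29 (Scn8a) and -0.39 to 0.68 (Scn2b). The causes were not tested. The mean of all probes of a gene was not run, since each member has 1 probe. The dim Scn8a and Scn2b probes limit what could be seen.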

Other observations

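The 250 bases before the transcription start differed widely in base composition among the 7 members with a promoter window, which Scn1a lacked. Scn8a had the richest window (86% G and C, 53 CpG and 6 GC boxes GGGCGG, a motif in 32.4% of 27457 rat windows), followed by Scn4b (71.6%, 21 CpG). Scn2b, which lies beside Scn4b, had 38.8% and 1 CpG, Scn3a 41.6% and 4 CpG, and Scn11a 46.4% and 4 CpG. Scn9a and Scn10a were near the median of all windows (52%), at 52.4% and 53.2%. These values describe the sequence only.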
